A study of Rattus norvegicus with 12 samples.

Results

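The genes described here are those whose symbol, as annotated for the array, places them among the matrix metalloproteinases (Mmp), their tissue inhibitors (Timp), the ADAM and ADAMTS metalloproteinases, and the lysyl oxidases (Lox, Loxl). Of 14217 genes with a probe set of their own on the array, 55 met this rule: 17 MMP, 4 TIMP, 18 ADAM, 12 ADAMTS and 4 lysyl oxidase genes. They are read by 80 probe sets, and where a gene has several, the one brightest on average across the 12 arrays stands for it. The rule used names and overall level only, but it was set with earlier results of these data known. That level includes the tumor arrays, so a probe set can stand for its gene because it is bright in tumor.

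RNA was taken from livers of Long Evans Cinnamon (LEC/Crj) rats, a strain that carries a defective copper transporter gene, Atp7b, and is known to develop hepatitis and liver tumors with copper overload. At 67 weeks, 4 arrays held LEC tumor and 4 held LEC nontumor liver, and the nontumor tissue lay beside the tumors of the same rats. Each of these arrays was hybridised with RNA pooled from 2 of 8 specimen pairs. One pool each stood for LEC liver at 4, 26 and 39 weeks and for liver of Long Evans Agouti (LEA) rats at 67 weeks, the control strain. All rats were labelled male and were kept free of specified pathogens, and no treatment is named for any group. Nontumor liver is therefore diseased tissue of the tumor-bearing strain, and the single pools carry no replicate spread. Tumor and nontumor pools thus hold tissue of the same rats, but the labels do not say which pools match or whether a specimen pair went into several of them. The p-values therefore set each difference against the spread among these pools, not among single rats, and the main fit takes no account of shared rats.

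Matrix metalloproteinases are zinc enzymes that cut collagens, laminins, elastin and other proteins outside the cell. They are made as inactive precursors, and the TIMP proteins block the active enzymes. ADAM proteins sit in the cell membrane, where the active ones release the outer parts of growth factors, cytokines and receptors. ADAMTS proteins are secreted and cut proteoglycans such as versican and aggrecan, among other targets. Lysyl oxidases act in the opposite sense on the matrix: they oxidise lysines of collagen and elastin so that the fibres become cross-linked. In scarred liver, stellate cells and the myofibroblasts they give rise to are known as sources of collagen, TIMP proteins and lysyl oxidases.

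Some of the secreted MMP genes lie side by side in the rat genome. In the RefSeq annotation of assembly GRCr8, 10 MMP genes follow each other without another protein-coding gene between them, and 6 of them are measured here: Mmp13, Mmp12, Mmp3, Mmp10, Mmp8 and Mmp7. Mmp13 and Mmp8 encode collagenases, Mmp3 and Mmp10 stromelysins, Mmp12 the macrophage elastase and Mmp7 matrilysin. The 100 bases before the start of each gene are shown because most of these neighbours share a short motif there, while some were measured well above the signal of absent RNA and others not. They come from RefSeq, assembly GRCr8, plus strand, at chr8:12782729-12782828, chr8:12866552-12866651, chr8:12925181-12925280, chr8:12974607-12974706, chr8:13008790-13008889 and chr8:13132943-13133042, in the order of the lines. Capitals mark the AP-1 motif TGANTCA, which reads the same on both strands.
Mmp13: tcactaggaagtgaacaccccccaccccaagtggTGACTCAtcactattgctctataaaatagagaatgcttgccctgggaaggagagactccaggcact
Mmp12: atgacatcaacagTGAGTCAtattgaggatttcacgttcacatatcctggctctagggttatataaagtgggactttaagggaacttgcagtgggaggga
Mmp3: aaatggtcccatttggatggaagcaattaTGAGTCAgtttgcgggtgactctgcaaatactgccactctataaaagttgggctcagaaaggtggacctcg
Mmp10: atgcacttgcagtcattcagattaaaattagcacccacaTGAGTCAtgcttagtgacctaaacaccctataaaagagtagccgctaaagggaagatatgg
Mmp8: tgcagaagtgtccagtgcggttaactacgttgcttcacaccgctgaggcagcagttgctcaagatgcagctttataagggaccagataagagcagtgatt
Mmp7: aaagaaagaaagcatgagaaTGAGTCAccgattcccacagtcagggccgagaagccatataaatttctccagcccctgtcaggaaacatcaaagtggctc

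The motif stands in 5 of these 6 stretches and not in that of Mmp8. It begins 66 bases before the start of Mmp13, 87 before Mmp12, 71 before Mmp3, 61 before Mmp10 and 80 before Mmp7. In windows of 300 bases, from 250 before to 50 after the start, it was found for 6 of the 32 members with a RefSeq promoter entry (18.8%), the sixth being Adam19. Of all 33469 promoters in the same table, 2453 hold it (7.33%). The other 23 members had no entry under their symbol. These are matches of letters, and no factor's binding was measured.

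All values below are log2 expression levels. Each difference is given with its standard error (±) from limma, a linear model with a pooled spread. A gene is called where its p-value, adjusted by Benjamini-Hochberg over all 31042 probe sets, is under 0.05. A level is a probe set's brightness, so levels of different genes are not compared. Probe sets for bacterial RNA that was not in the samples give the range seen without target, here named the absent-RNA range. Its top lay between 5.52 and 5.67 on the tumor arrays, from 5.88 to 6.01 on the nontumor arrays and from 6.11 to 6.22 on the single pools. The 27 probe sets that define it were themselves lower on the tumor arrays by a median of -0.16, with a range of -0.69 to 0.08.

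The arrays had medians between 7.39 and 7.51. Xist, the RNA of the inactive X chromosome of female cells, lay between 11.36 and 13.12 on 10 arrays and at 5.27 and 5.67 on those of LEC at 26 and 39 weeks. The Y-linked gene Eif2s3y had the reverse pattern, with 8.90 and 8.18 on these and values of 3.65 to 3.81 elsewhere. The male label therefore goes against both genes on 10 arrays. Tumor, nontumor, LEA and 4-week arrays agree in this respect, whereas any difference between 26 or 39 weeks and another group cannot be told apart from it. Tumor array 3 was the highest or lowest tumor array for 68.2% of all genes and for 58.2% of the 55 members, and tumor array 4 for 57.4% and 61.8%.

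Tumor was compared with nontumor liver to ask which proteases, inhibitors and cross-linking enzymes differed between them. Of the 55 genes, 26 rose and 13 fell in tumor, and 16 were not called. Over all 14217 genes, 38.8% were called higher and 29.2% lower, or 67.9% in either direction, against 70.9% of the members, so the share called is near the background. At least 2-fold changes were found for 15 members upward and 3 downward, where the background is 14.0% and 6.91% of genes. The median difference over the members was 0.19, and 0.07 over all genes. The groups did not overlap for 36 members, where the background is 63.8%.

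**Figure D1:**
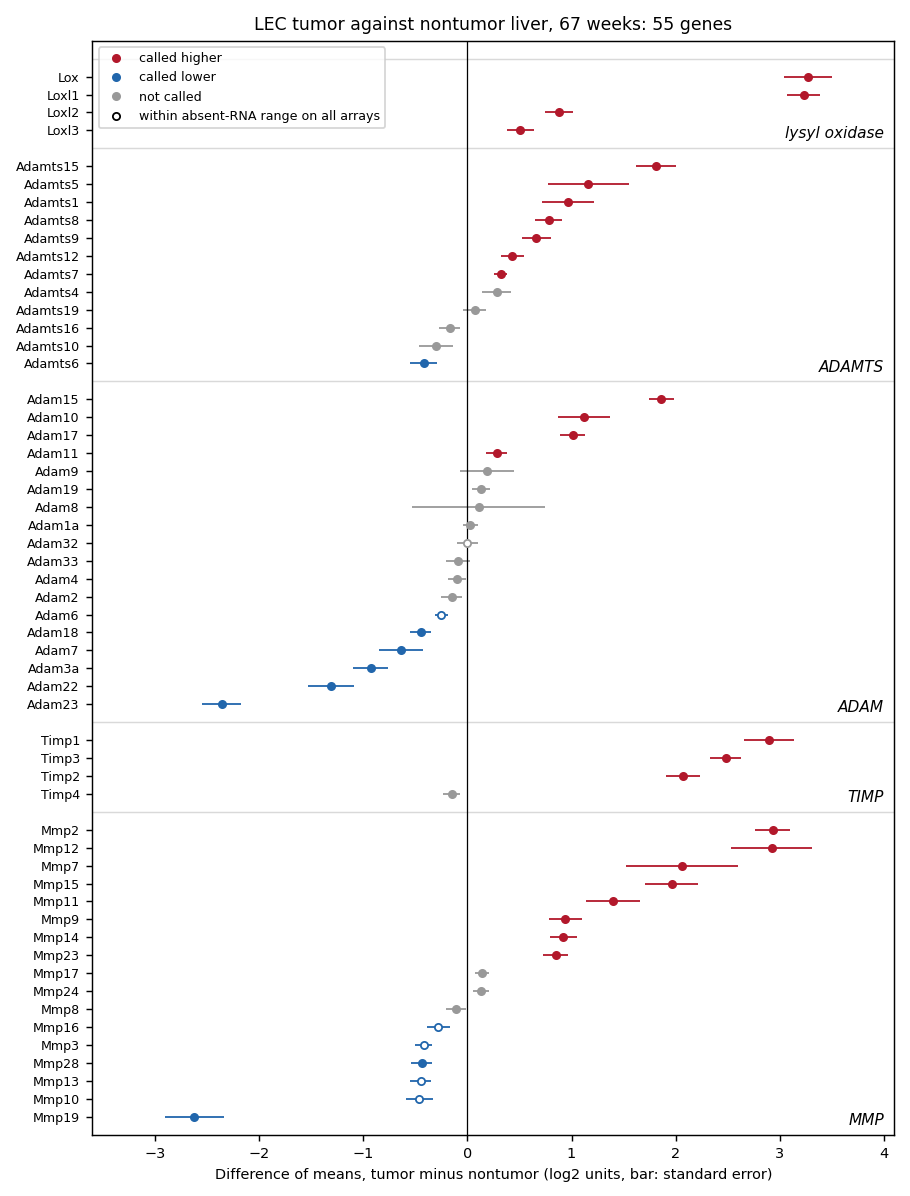
Tumor minus nontumor difference of means for the 55 genes (horizontal axis, log2 units; bars, standard error from limma; 4 arrays a group), by family. Red points were called higher (26 genes), blue points lower (13) and grey points not called (16); open points mark 6 genes within the absent-RNA range on all 12 arrays, and Lox and Loxl1 lie farthest to the right.

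The families differed in their counts. All 4 lysyl oxidase genes rose, as did 3 of 4 TIMP genes, and no gene of either family was called lower. Of the ADAMTS genes 7 rose and 1 fell, and of the MMP genes 8 rose and 6 fell. Among the ADAM genes 4 rose and 6 fell. Of the genes called lower, Mmp3, Mmp10, Mmp13, Mmp16 and Adam6 were within the absent-RNA range on all arrays. Only Mmp19 and Mmp28 are left among the MMP genes called lower when these are set aside. Another quantile normalization left the counts of the lysyl oxidase and TIMP families as they were but gave 3 higher and 2 lower among the ADAMTS genes, and subtraction of array medians gave 7 higher and 3 lower there. Subtraction of array medians also called Timp4 lower, at -0.26 (adjusted p = 0.0193). The background moved as well. Of all genes called, 57.1% were higher in the main fit, 47.6% after another quantile normalization and 48.3% after subtraction of array medians. These scalings moved the median difference of all genes from 0.07 to -0.04, and some members moved further. Another quantile normalization took Adamts1 from 0.97 to 0.68 and Adamts7 from 0.32 to 0.05. It took Adam1a from 0.03 to -0.22, where limma called it lower (adjusted p = 0.0183). Small differences carry that uncertainty. Whether the difference between families exceeds chance was not tested.

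Among the MMP genes, the gelatinases Mmp2 and Mmp9 both rose. Mmp2, gelatinase A, lay at 7.43, 7.82, 8.10 and 7.83 on the nontumor arrays and at 10.66, 10.67, 11.09 and 10.49 on the tumor arrays. Every tumor value was above every nontumor value, and the difference was 2.93 ± 0.17 (7.63-fold, adjusted p = 3.1e-06). Its second probe set moved the other way, by -0.54 ± 0.09 (adjusted p = 9.7e-04), from values between 7.97 and 8.13 to values between 7.33 and 7.70. Mmp9, gelatinase B, known from neutrophils and macrophages, lay at 5.93, 6.00, 5.90 and 6.04 in nontumor liver and at 6.47, 6.76, 7.17 and 7.23 in tumor. The groups did not overlap, and Mmp9 rose by 0.94 ± 0.16 (adjusted p = 0.00106). Its nontumor values lie at the edge of the absent-RNA range, within it on nontumor array 1, so the size of its rise has a weak base.

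Within the cluster on chromosome 8, only Mmp12 and Mmp7 were called higher. Mmp12, which macrophages are known to make, lay at 7.30, 7.70, 9.0 and 9.0 in nontumor liver and at 11.44, 11.41, 11.02 and 10.79 in tumor. Nontumor arrays differed among themselves more than tumor arrays did, yet the groups did not overlap, and the difference was 2.92 ± 0.39 (7.54-fold, adjusted p = 2.7e-04). Mmp7, an enzyme of epithelial cells, stayed between 6.43 and 6.58 in nontumor liver and lay at 7.87, 7.70, 10.49 and 8.16 in tumor. All 4 tumor arrays were above the nontumor arrays, but array 3 stood far above the rest. The difference of 2.06 ± 0.54 (adjusted p = 0.00952) was 1.41 (adjusted p = 3.4e-05) without it.

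The other measured genes of that cluster were at or near the signal of absent RNA. Mmp3, Mmp10 and the collagenase gene Mmp13 were within the absent-RNA range on all 12 arrays, and Mmp8 was within it on 11. Mmp13 was called lower, at -0.45 ± 0.10 (adjusted p = 0.00401), with values between 4.52 and 4.95 in nontumor liver and between 4.25 and 4.32 in tumor. The bacterial probe sets were themselves lower in tumor, the lowest at -0.69, so this call and those of Mmp3, Mmp10, Mmp16 and Adam6, also within the range throughout, describe signal without demonstrable target RNA. Of the 13 genes called lower, 8 remain when these 5 are set aside. The shared promoter motif thus went with a measurable transcript for Mmp12 and Mmp7, and with values in the absent-RNA range for Mmp13, Mmp3 and Mmp10.

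The membrane-bound Mmp14 and Mmp15 rose as well. Mmp14, which cuts collagen at the cell surface and activates the Mmp2 precursor, lay at 10.73, 11.01, 10.41 and 10.76 in nontumor liver and at 11.46, 11.66, 11.73 and 11.73 in tumor. It rose by 0.92 ± 0.13 (1.89-fold, adjusted p = 3.5e-04) with no overlap, while its dimmer probe set was called lower at -0.19 (adjusted p = 0.0313). Mmp15 lay at 10.04, 9.88, 9.67 and 9.57 in nontumor liver and at 12.00, 11.83, 10.96 and 12.22 in tumor. That is a rise of 1.96 ± 0.25 (3.90-fold, adjusted p = 2.1e-04), with tumor array 3 the lowest of the tumor arrays. Mmp17 and Mmp24, of the same class, were not called.

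Mmp11, a stromelysin known from the fibroblasts around tumors, lay at 6.16, 6.02, 6.34 and 6.61 in nontumor liver and at 7.89, 7.56, 6.97 and 8.33 in tumor. It rose by 1.40 ± 0.26 (2.64-fold, adjusted p = 0.00178), again with tumor array 3 lowest. Mmp23, a small membrane-anchored member, was called higher at 0.85 ± 0.12 (adjusted p = 4.2e-04), but one of its other probe sets was called lower at -0.80. Another, within the absent-RNA range on all 4 nontumor arrays, was called higher. Its tumor mean was 1.19 above the top of that range averaged over the nontumor arrays.

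Mmp19 had the largest fall of the 6 MMP genes called lower. This enzyme, which cuts basement membrane proteins, lay at 9.29, 9.56, 9.39 and 9.30 in nontumor liver and at 6.96, 6.48, 7.55 and 6.06 in tumor. It fell by 2.62 on the log2 scale (± 0.28, 6.16-fold lower, adjusted p = 6.9e-05). Every tumor array lay below every array of LEA and of younger LEC liver, where the gene was between 9.65 and 10.12. Mmp28 was also called lower, by a smaller amount, at -0.44 ± 0.10 (adjusted p = 0.00434).

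**Figure D2:**
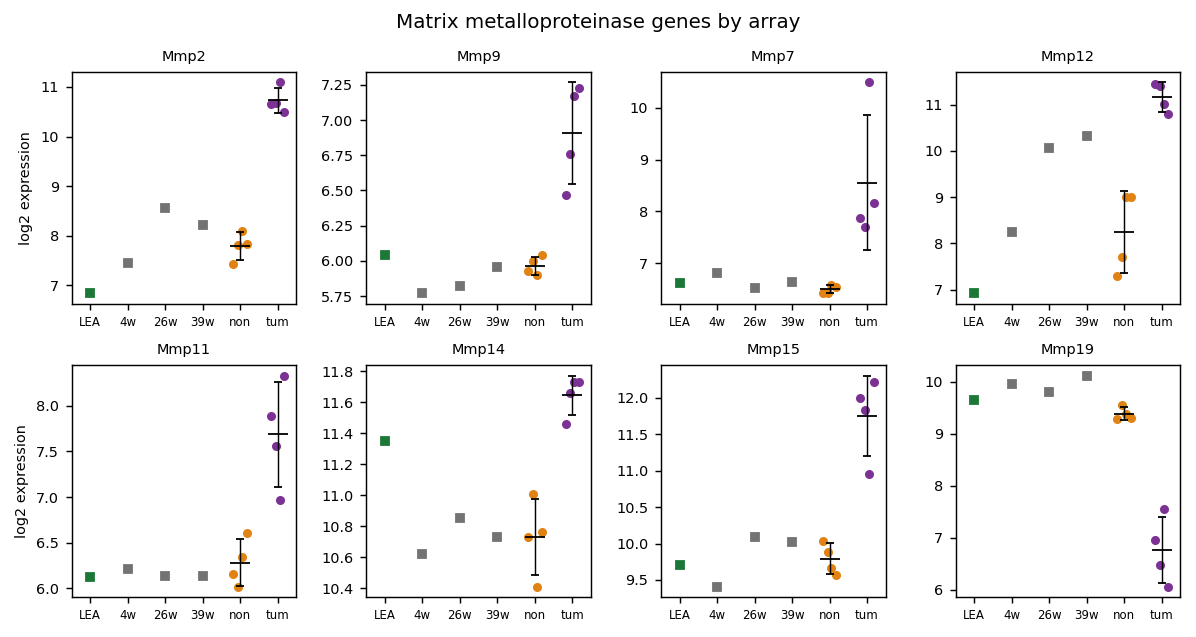
Log2 expression of 8 MMP genes on every array; panels have separate vertical axes, squares are the single LEA, LEC 4-week, 26-week and 39-week pools, dots the 4 nontumor and 4 tumor arrays, and bars the mean ± SD. Mmp19 falls from between 9.29 and 9.56 in nontumor liver to between 6.06 and 7.55 in tumor, while the other 7 genes are higher in tumor; for Mmp12 the 26- and 39-week pools lie above all nontumor arrays.

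The inhibitors rose together with these enzymes. Timp1, which is made by stellate cells in injured liver, lay at 7.82, 8.43, 8.83 and 7.77 in nontumor liver and at 11.20, 11.06, 11.38 and 10.82 in tumor. The difference was 2.90 ± 0.24 (7.48-fold, adjusted p = 1.9e-05), and the groups were 1.99 apart at their nearest values. Timp2, which besides inhibiting helps Mmp14 to activate the Mmp2 precursor, lay at 9.91, 10.46, 10.02 and 9.67 in nontumor liver and at 11.97, 11.99, 12.16 and 12.22 in tumor. It rose by 2.07 ± 0.16 (4.20-fold, adjusted p = 1.3e-05), and its second probe set by 1.44 ± 0.12 (adjusted p = 1.7e-05).

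Timp3 binds to the matrix and is the TIMP known to inhibit ADAM17 and the ADAMTS aggrecanases. It was even among the nontumor arrays, at 9.42, 9.41, 9.49 and 9.36, and lay at 11.84, 12.00, 11.48 and 12.28 in tumor. The rise was 2.48 ± 0.15 (5.59-fold, adjusted p = 4.3e-06), and all 3 other probe sets of the gene were called higher too. Timp4 was the exception, with 7.03, 6.96, 7.13 and 7.15 in nontumor liver and 6.93, 6.86, 6.84 and 7.03 in tumor. The groups overlapped, and the difference of -0.15 ± 0.08 was not called (adjusted p = 0.11).

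Among the lysyl oxidases, Lox and Loxl1 had the largest differences of all 55 genes. Lox, the founding member of the family, lay at 7.10, 8.04, 7.55 and 7.31 in nontumor liver and at 10.46, 10.98, 11.15 and 10.51 in tumor. That is a rise of 3.27 ± 0.23 (9.66-fold, adjusted p = 8.1e-06), and the second probe set rose by 2.74 ± 0.17 (adjusted p = 4.5e-06), from nontumor values of 5.57, 6.06, 6.08 and 5.89, of which 2 lie within the absent-RNA range. Loxl1, needed for the upkeep of elastic fibres, lay at 8.75, 9.0, 9.55 and 9.12 in nontumor liver and at 12.44, 12.40, 12.27 and 12.21 in tumor. It rose by 3.23 ± 0.16 (9.36-fold, adjusted p = 1.6e-06), and its tumor values differed by less than its nontumor values.

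Loxl2 and Loxl3 rose by less. Loxl2, which cross-links collagen in fibrotic liver, lay at 7.80, 7.85, 7.78 and 7.39 in nontumor liver and at 8.69, 8.65, 8.68 and 8.31 in tumor. It rose by 0.88 ± 0.13 (adjusted p = 4.4e-04), but its dimmer probe set was not called, at 0.21 ± 0.13 (adjusted p = 0.169). Loxl3 lay at 6.78, 6.54, 6.85 and 7.23 in nontumor liver and at 7.35, 7.28, 7.36 and 7.43 in tumor. The rise of 0.51 ± 0.13 (adjusted p = 0.00913) left 0.06 between the nearest values of the groups.

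**Figure D3:**
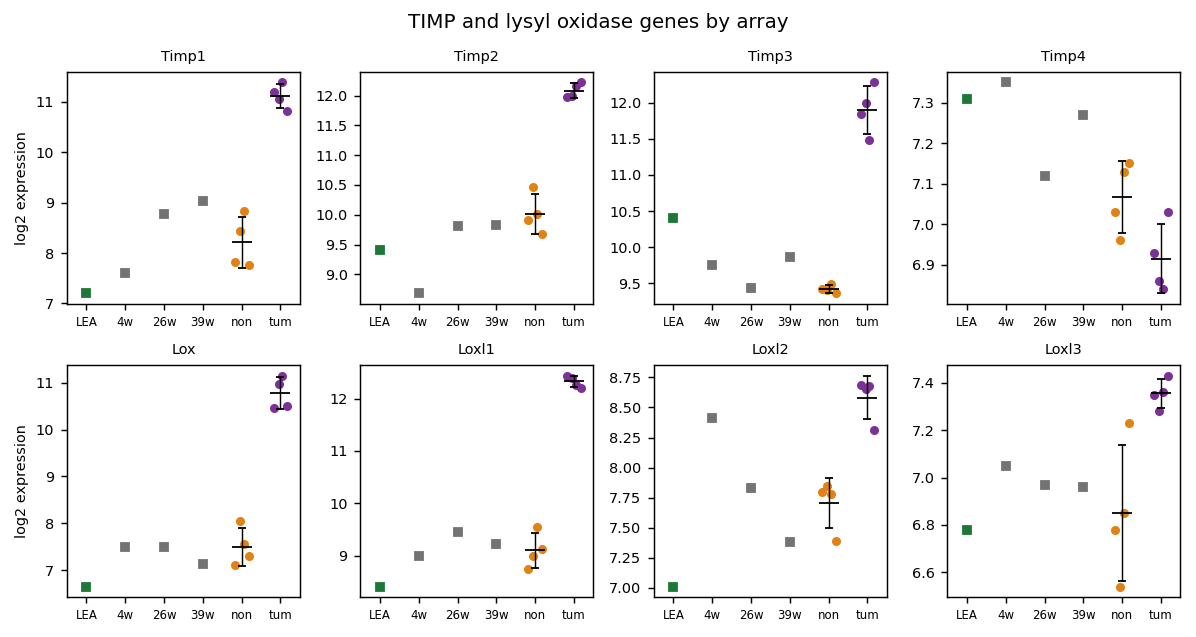
Log2 expression of the 4 TIMP and 4 lysyl oxidase genes on every array; panels have separate vertical axes, squares are the single LEA, LEC 4-week, 26-week and 39-week pools, dots the 4 nontumor and 4 tumor arrays, and bars the mean ± SD. Timp4 is the panel in which tumor and nontumor values overlap; Timp3 is higher in the LEA pool (10.40) than on any nontumor array.

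Of the 18 ADAM genes, 4 rose, among them Adam10 and Adam17, and 6 fell, of which Adam23 fell most. Adam10, the main sheddase of Notch receptors and cadherins, lay at 8.79, 9.0, 8.48 and 7.92 in nontumor liver and at 9.64, 9.86, 10.01 and 9.17 in tumor. The groups came within 0.16 of each other, and the rise was 1.12 ± 0.25 (2.17-fold, adjusted p = 0.00444), with 1.04 ± 0.26 on the second probe set. Adam17, the enzyme that releases tumor necrosis factor and EGF receptor ligands, lay at 9.63, 9.81, 9.51 and 9.43 in nontumor liver and at 10.38, 10.76, 10.74 and 10.54 in tumor. It rose by 1.01 ± 0.12 (2.01-fold, adjusted p = 1.1e-04) with no overlap.

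Adam15, a membrane protease with an integrin-binding domain, had the largest rise of its family. It lay at 7.47, 7.82, 7.55 and 7.47 in nontumor liver and at 9.32, 9.30, 9.41 and 9.71 in tumor, a difference of 1.86 ± 0.12 (3.62-fold, adjusted p = 5.5e-06). Adam11, which like Adam22 and Adam23 lacks an active protease site, was called higher at 0.28 ± 0.10 (adjusted p = 0.0386), a call that ended with subtraction of array medians (0.18, adjusted p = 0.152).

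Adam23, which acts in cell adhesion, lay at 9.66, 9.72, 9.38 and 9.26 in nontumor liver and at 7.20, 7.15, 7.57 and 6.64 in tumor. It fell by 2.36 on the log2 scale (± 0.19, 5.15-fold lower, adjusted p = 1.7e-05), and both other probe sets were called lower, at -1.94 and -0.52. Adam22, a related adhesion protein known from nerve cells, lay at 8.53, 8.40, 9.24 and 9.24 in nontumor liver and at 7.55, 7.33, 7.87 and 7.39 in tumor. The difference was -1.31 ± 0.22 (adjusted p = 8.6e-04), while its 2 dimmer probe sets were not called. Adam3a, Adam7, Adam18 and Adam6, genes known mainly from the male reproductive tract, were called lower by smaller amounts, between -0.93 and -0.25. Adam9, Adam19, Adam33, Adam1a, Adam2, Adam4 and Adam32 were not called.

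Adam8, a membrane protease known from leukocytes, varied within the nontumor group more than between groups. It lay at 6.81, 10.00, 9.92 and 9.56 in nontumor liver and at 9.38, 8.89, 9.50 and 8.97 in tumor. With nontumor array 1 the difference was 0.11 ± 0.64 (adjusted p = 0.891), and without it -0.64 (adjusted p = 0.0167). Its other probe set did not show this pattern, with 7.32, 7.18, 7.41 and 7.22 in nontumor liver, and was called lower in tumor at -0.38 ± 0.10.

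**Figure D4:**
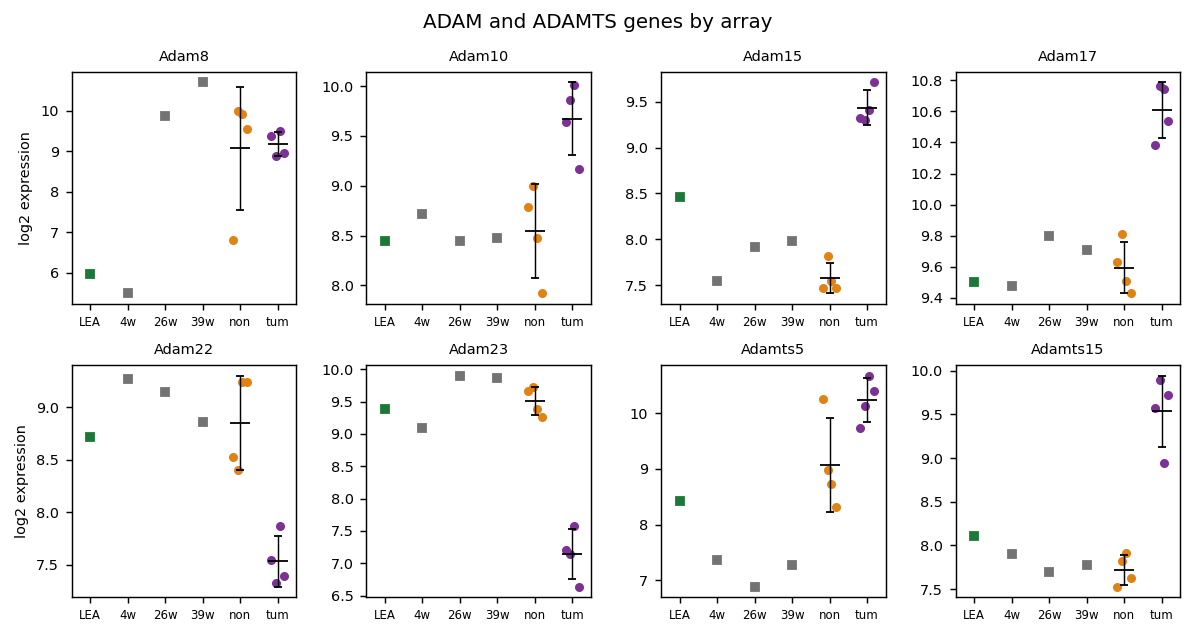
Log2 expression of 6 ADAM and 2 ADAMTS genes on every array; panels have separate vertical axes, squares are the single LEA, LEC 4-week, 26-week and 39-week pools, dots the 4 nontumor and 4 tumor arrays, and bars the mean ± SD. For Adam8 nontumor array 1 (6.81) lies with the LEA and 4-week pools rather than with the other nontumor arrays, and Adam22 and Adam23 are lower on all tumor arrays.

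The ADAMTS genes that rose include 5 of the 6 measured genes for aggrecan- or versican-cutting enzymes. Adamts15 lay at 7.53, 7.82, 7.91 and 7.63 in nontumor liver and at 9.58, 9.89, 8.95 and 9.72 in tumor. It rose by 1.81 ± 0.19 (3.50-fold, adjusted p = 7.4e-05) and was the family's largest change. Adamts5 lay at 10.25, 8.98, 8.73 and 8.31 in nontumor liver and at 9.73, 10.13, 10.67 and 10.39 in tumor. Nontumor array 1 lay within the tumor values, and the call at 1.16 ± 0.39 (adjusted p = 0.0265) ended under 9 alternatives, among them each of the left-out nontumor arrays 2, 3 and 4 and tumor arrays 2, 3 and 4. Its second probe set was not called, at 0.96 ± 0.38 (adjusted p = 0.0501).

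Adamts1, Adamts8 and Adamts9 were called higher at 0.97, 0.78 and 0.66, and Adamts4 was not called, at 0.28 ± 0.14. Adamts1 lost its call with another quantile normalization (0.68, adjusted p = 0.0507), and Adamts9 has a second probe set that was called lower at -0.33. Adamts7 and Adamts12, whose enzymes bind the cartilage matrix protein encoded by Comp, were called higher at 0.32 and 0.43, and another quantile normalization ended both calls. Adamts6 was called lower at -0.42 ± 0.13 (adjusted p = 0.0163). Adamts10, Adamts16 and Adamts19 were not called.

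Some members are neighbours in the RefSeq annotation, and whether neighbours vary together was not tested. Adamts1 and Adamts5, and Adamts15 and Adamts8, are adjacent genes and were all called higher. Another quantile normalization ended the calls of Adamts1 and Adamts5. Adam3a and Adam18 are adjacent and were both called lower. Adam9 and Adam32 are adjacent, and neither was called, with Adam32 within the absent-RNA range on all arrays. Other adjacent genes differed in their calls: Mmp13 was called lower and Mmp12 higher, and Mmp10 was called lower while Mmp8 was not called. Mmp13 and Mmp10 were within the absent-RNA range on all 12 arrays and Mmp8 on 11. These calls therefore do not show a difference between measurable neighbouring transcripts.

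Of the 17 members with several probe sets, 8 gave the same call on all of them and 9 did not. For 5 genes, Adam19, Adamts9, Mmp14, Mmp2 and Mmp23, probe sets were called in opposite directions. In nontumor liver the probe sets used for Mmp2 and Mmp23 had means of 7.79 and 7.78. Those of their probe sets called lower in tumor were brighter there, at 8.04 and 7.85. For Adam8 the probe set used was dimmer than the other in the LEA pool (5.97 against 7.72) and at 4 weeks (5.49 against 7.36). The differences of these genes therefore depend on the choice of probe set. In the lysyl oxidase and TIMP families no probe set was called lower in tumor.

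**Figure D5:**
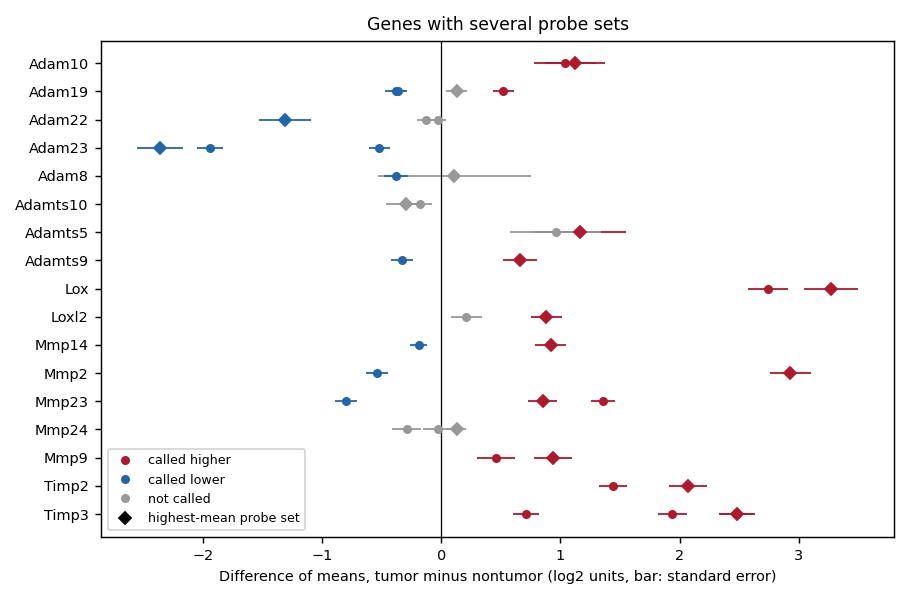
Tumor minus nontumor difference of means (horizontal axis, log2 units; bars, standard error from limma; 4 arrays a group) for every probe set of the 17 genes with more than 1; diamonds are the probe sets with the highest mean, and colours give the call. Mmp2, Mmp14, Mmp23, Adamts9 and Adam19 have points called on both sides of 0, while the probe sets of Timp2, Timp3 and Lox all lie above it.

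Markers of cell types were also compared between tumor and nontumor liver. Of 11 markers of stellate cells and myofibroblasts, 9 were called higher in tumor and 0 lower, and their summed level was between 12.47 and 12.94 on the nontumor arrays and between 14.50 and 15.10 on the tumor arrays. All 7 measured markers of bile duct and progenitor cells were called higher, from between 10.80 and 12.43 to between 14.89 and 15.12. Of 7 hepatocyte markers 5 were called lower and 0 higher, from between 16.30 and 16.50 to between 13.59 and 16.14. Of the stellate cell and myofibroblast markers, Thy1 and Reln were not called, at 0.20 and 0.01. The background for these counts is 38.8% of all genes called higher in tumor and 29.2% lower. In bulk tissue, more cells of a type and more RNA per cell cannot be told apart, and the part of cell make-up in the differences above was not tested.

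Markers of leukocytes and endothelium differed by cell type. The same background, 38.8% of all genes called higher and 29.2% lower, holds for their counts. Of 6 macrophage markers 3 were called higher, Adgre1 (1.20), Csf1r (0.68) and C1qa (0.45), and 2 lower, Clec4f (-3.85) and Cd163 (-1.15). Their sums, which join these opposite changes, lay between 13.31 and 14.01 in nontumor liver and between 13.46 and 13.70 in tumor. Of 4 neutrophil markers 3 were called higher, with sums between 10.37 and 11.10 in nontumor liver and between 11.19 and 12.29 in tumor. Of the neutrophil markers Camp was within the absent-RNA range on all arrays. All 5 mast cell markers were called higher, from between 8.98 and 9.39 to between 10.91 and 11.67. Of 7 endothelial markers 4 were called higher and 3 lower, with sums from 12.58 to 13.01 in nontumor liver and from 12.54 to 12.91 in tumor. Of 8 T, B and NK cell markers 3 were higher and 1 lower, with sums from 10.52 to 10.73 and from 11.25 to 11.47. What these cells contributed was not tested.

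Further genes of the same system were taken from lists chosen by function. For each list, up to 4 called genes with the largest differences in size are named, so they are extremes of their list. For every count of list genes called in tumor, the background is 38.8% of all genes higher and 29.2% lower. Whether a list departs from it was not tested. Of 21 measured matrix substrates, 17 were called higher and 3 lower, with a median difference of 2.15 against 0.07 over all genes. The collagen gene Col1a1 rose by 2.80 ± 0.22, the proteoglycan gene Dcn by 2.92 ± 0.21 and the laminin gene Lamc1 by 3.06 ± 0.19. Vcan, the versican gene, was within the absent-RNA range on all arrays but those of tumor. Its tumor mean was 2.40 log2 units (5.27-fold) above the top of that range averaged over the nontumor arrays. Against the measured nontumor values the difference was 3.27 ± 0.29 (adjusted p = 2.9e-05). Of 20 measured genes for collagen and elastin processing, 11 were called higher and 4 lower, with a median of 0.42. The rises there include Plod2, a lysyl hydroxylase whose product shapes collagen cross-links (3.47 ± 0.17), the fibrillin gene Fbn1 (2.42 ± 0.13), the collagen chaperone gene Serpinh1 (1.90 ± 0.39) and the transglutaminase gene Tgm2 (1.76 ± 0.16).

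The plasminogen system and other protease regulators gave 10 genes called higher and 6 lower of 18, with a median of 0.88. Plat, the tissue plasminogen activator gene, rose by 3.76 ± 0.13, from values between 7.80 and 8.36 to values between 11.67 and 11.94. St14, the gene of the membrane protease matriptase, rose by 2.66 ± 0.21. Plg, the plasminogen gene, and Serpinf2, the gene of the plasmin inhibitor, are both hepatocyte products and were lower in tumor by differences of -2.72 ± 0.81 and -2.93 ± 0.67. The activator gene and its substrate's gene thus changed in opposite directions.

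Of 24 substrates and partners of ADAM10 and ADAM17, 14 were called higher and 3 lower, with a median of 0.60. The membrane chemokine genes Cxcl16 and Cx3cl1 rose by 3.00 ± 0.18 and 2.55 ± 0.25, and Tspan15, a tetraspanin that binds ADAM10, by 1.80 ± 0.23. Egf fell by 2.01 on the log2 scale (± 0.27). Of 20 lysosomal and other matrix-degrading proteases, 12 were called higher and 3 lower, with a median of 0.48. The neprilysin gene Mme, the serine protease gene Htra3 and the mast cell protease genes Mcpt1 and Cma1 rose by 2.58 ± 0.52, 2.52 ± 0.12, 2.40 ± 0.33 and 2.22 ± 0.13.

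Nontumor LEC liver was next compared with LEA liver of the same age, to ask which members differ before or beside the tumor. This comparison has the nontumor arrays in common with the one above, and LEA is 1 pool, so the strain's own spread is not measured. In limma 0 of the 55 genes were called, and 0.563% of all genes were called. An unadjusted p under 0.05 was found for 14 members (25.5%) and for 12.4% of all genes. The lowest adjusted p was 0.0978, for Adam15, which lay at 8.46 in LEA and between 7.47 and 7.82 in nontumor liver. Values did not overlap for 32 members, where the background is 48.8%.

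Timp3 was the 1 member with any probe set called against LEA. The LEA array gave 10.40 and the 4 nontumor arrays between 9.36 and 9.49, a difference of -0.99 ± 0.24 (adjusted p = 0.135). All 4 of its probe sets had lower values in nontumor liver, with differences of -0.75 to -1.46, and the one at -1.46 ± 0.22 was called (adjusted p = 0.0299). Among the other members, Timp1 was 1.02 ± 0.38 higher (adjusted p = 0.327), Mmp12 1.33 ± 0.62 (adjusted p = 0.438), Mmp2 0.95 ± 0.26 (adjusted p = 0.193) and Lox 0.85 ± 0.36 (adjusted p = 0.387), and none of these was called. The second probe set of Mmp2 differed by 0.00 ± 0.15 (adjusted p = 0.994).

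Adam8 lay at 5.97 in LEA, within the absent-RNA range, and its nontumor mean was at least 2.96 above the top of that range (at least 7.78-fold). Against the measured LEA value the difference of 3.10 ± 1.01 was not called (adjusted p = 0.267), and without nontumor array 1 it was 3.85 (adjusted p = 0.00139). The other Adam8 probe set ran the other way, at -0.44 ± 0.16 (adjusted p = 0.319). Of 6 markers of pancreas 1 was called lower in nontumor liver than in LEA and 2, Cela2a and Amy2a3, were within the absent-RNA range on all arrays. Their sum was 12.34 in the LEA pool and between 9.18 and 9.53 in nontumor liver, and their part in these contrasts was not tested. Of the matrix substrates, Col1a1 and Col3a1 were called higher in nontumor liver than in LEA, at 2.10 (adjusted p = 0.0455) and 1.36 (adjusted p = 0.0369).

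Against LEC liver at 4 weeks, nontumor liver at 67 weeks had 0 members called higher and 1 lower in limma, and 0.464% of all genes were called. An unadjusted p under 0.05 was found for 12 members (21.8%) and for 13.5% of all genes. Values did not overlap for 30 members, where the background is 48.9%. The called gene was Adamts7, at 9.23 in the 4-week pool and at 8.33, 8.41, 8.34 and 8.38 on the nontumor arrays. The difference of -0.87 ± 0.10 (adjusted p = 0.0145) lost its call without tumor array 1 (adjusted p = 0.0512) and in a fit of these 2 groups alone (adjusted p = 0.199). Timp2 was 1.33 ± 0.25 higher, which missed the threshold (adjusted p = 0.0718), with 8.68 at 4 weeks and values between 9.67 and 10.46 in nontumor liver. Its second probe set differed by 0.00 ± 0.18 (adjusted p = 0.999). The first passed the threshold without nontumor array 4 (1.45, adjusted p = 0.0374). Adam8 lay at 5.49 in the 4-week pool, again within the absent-RNA range. The nontumor mean was at least 2.93 above the top of that range, and the difference of 3.58 ± 1.01 was not called with all arrays (adjusted p = 0.18) but was without nontumor array 1 (4.34, adjusted p = 0.00198), and the other probe set differed by -0.08 ± 0.16 (adjusted p = 0.885).

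The LEC pools of different ages are 1 array each, so their differences have no test, and those from 4 weeks share the 4-week array. At 26 weeks 5 members were at least 2-fold higher than at 4 weeks and 0 lower, where the background is 2.57% and 0.563% of genes. These were Adam8, Mmp12, Timp1, Timp2 and Mmp2. At 39 weeks 4 members were higher, Adam8, Mmp12, Timp1 and Timp2, and 1 lower, Loxl2, where the background is 2.51% and 0.549%. Between 39 and 26 weeks 0 members differed by 2-fold in either direction, where 0.0774% of genes were higher and 0.134% lower.

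Adam8 had the widest range over age, with 5.49 at 4 weeks, 9.88 at 26 and 10.70 at 39 weeks, which is at least 3.73 and 4.55 above the top of the absent-RNA range of the 4-week array (13.3-fold and 23.4-fold). Its other probe set did not show this, with 7.36, 7.32 and 7.68. Mmp12 lay at 8.24, 10.06 and 10.33 at these ages, so that both older pools were above all 4 nontumor arrays of 67 weeks. Timp1 lay at 7.61, 8.78 and 9.04. Timp2 lay at 8.68, 9.81 and 9.83, and Mmp2 at 7.46, 8.57 and 8.22. Their second probe sets did not rise with them, at 7.91, 7.85 and 8.03 for Timp2 and 8.18, 7.98 and 8.11 for Mmp2, and neither gene was past 2-fold at 26 or 39 weeks when its probe sets were averaged. Loxl2 ran the other way, with 8.41, 7.83 and 7.38, but was not past 2-fold when its probe sets were averaged.

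The remaining lysyl oxidases did not follow. Lox lay at 7.49, 7.49 and 7.13 at 4, 26 and 39 weeks, and Loxl1 at 9.0, 9.46 and 9.23, all within or near the nontumor values of 67 weeks and far below the tumor values. Summed bile duct and progenitor markers stood at 10.68 at 4 weeks, 12.29 at 26 and 12.00 at 39 weeks, and stellate cell markers at 12.77, 13.18 and 13.11. Their part in these differences was not tested, and age here cannot be told apart from the change in Xist and Eif2s3y.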

How the data were processed

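Total RNA of rat liver was hybridised to 12 Affymetrix rat expression arrays. The deposited table holds log2 expression values; per the submitters' processing notes the authors used RMA, with R 2.6.1; the genome build of the annotation is not given in the sources used here. RMA corrects background, equalises the distributions of arrays and combines probes into probe sets, which compresses differences of dim probe sets. The values were used as deposited. After 57 control probe sets were left out, 31042 were tested; 20826 of them name 1 gene, 436 several and 9780 none listed here, and 20758 matched RefSeq by Entrez identifier.

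Group means over all 12 arrays were fitted with limma 3.58.1 (lmFit, eBayes) in R 4.3.3, two-sided, with 6 residual and 2.84 prior degrees of freedom. Single pools were taken to vary as the groups of 4 do. The fit was tested on simulated data.

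Members and lists were chosen with earlier results of these data known. Named are all TIMP and lysyl oxidase genes, other members called with at least a 2-fold difference, and Mmp2, Mmp9, Mmp13, Mmp14, Adam10 and Adam17. Of each further list, up to 4 genes with the largest difference among those called in tumor against nontumor are named. Adam8, Adamts7, the smaller changes and the values of second probe sets were chosen after they were seen. Alternatives were other scalings, a filter on dim probe sets, other priors and weights, gene means, other thresholds, a block by title number and the omission of each replicate. Precision is limited by how few arrays there are. Figures used matplotlib 3.10.9 in Python 3.11.15.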

Additional observations from a re-analysis of the deposited data

Results flagged for a closer look

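Within the groups of 4 arrays, 8 of 110 gene and group combinations had 1 array set apart from the other 3 by more than Dixon's critical value for a group of 4, where chance flags about 1 in 20. Mmp7 on tumor array 3 was the highest, at 10.49 against a next value of 8.16, and Adamts1 was highest on the same array, at 10.66 against 9.63. Mmp13 was lowest there, at 4.25 against 4.31, within the absent-RNA range. Adam8 on nontumor array 1 was the lowest, at 6.81 against 9.56. Loxl2 was lowest on nontumor array 4, at 7.39 against 7.78, and on tumor array 4, at 8.31 against 8.65. Adam19 was lowest on nontumor array 3, at 8.53 against 8.69, and Adamts8 was lowest on tumor array 1, at 7.20 against 7.47.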

How the results depend on the processing

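For tumor against nontumor, leaving out 1 array gave between 24 and 26 members higher and between 11 and 13 lower. A 2-fold minimum gave 15 and 3, and leaving out dim probe sets gave 20 higher and 4 lower. Another quantile normalization gave 22 higher and 13 lower, and subtraction of array medians 25 and 16. Of all genes called, 57.1% were higher in the main fit, against 47.6% and 48.3% under these scalings. Adam8, at 0.11 with all arrays, ranged from -0.64 (without nontumor replicate 1) to 0.42 when 1 array was left out. Against LEA, leaving out 1 array gave 0 to 1 higher (Adam8) and 0 lower; gene means gave 1 lower (Timp3, -1.06, adjusted p = 0.0425). Against 4 weeks, leaving out 1 array gave 0 to 1 higher and 0 to 1 lower; another quantile normalization and array weights each gave 1 higher (Timp2, 1.33 and 1.35), and a 2-fold minimum and a fit of these groups alone each gave 0 lower. Between 26 and 4 weeks, gene means gave 3 higher, a 3-fold limit 2 higher and a 1.5-fold limit 2 lower. Between 39 and 4 weeks, a 1.5-fold limit gave 7 higher, a 3-fold limit 2 higher and 0 lower, and gene means 0 lower; between 39 and 26 weeks, a 1.5-fold limit gave 1 higher. With the replicate block, 25 members were higher and 13 lower, Adamts5 lost its call (1.16, adjusted p = 0.0564) and no other named gene did. Same-numbered tumor and nontumor arrays had correlations of deviations of 0.05, 0.14, -0.08 and 0.14, so the numbers are not shown to pair arrays. The cause of these changes was not tested, except that a higher fold limit leaves fewer genes by construction. Values within the absent-RNA range limit what the calls of Mmp3, Mmp10, Mmp13, Mmp16 and Adam6 can show.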
